A study of Homo sapiens with 6 samples.

Results

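The RNAs described here are those whose gene name ends in -AS1, the naming committee's suffix for a transcript that lies antisense to a named protein-coding gene. Those with a summed raw count of 300 or more over 6 RNA-seq libraries were taken, which gave 133 of the 935 rows with such a name in a table of 60611 genes. GENCODE 29 types 94 of them as antisense, 20 as processed transcript and 15 as lincRNA, while TP73-AS1, SVIL-AS1 and SLC44A3-AS1 are typed as transcribed pseudogenes and KRT10-AS1 as protein coding. Their levels chose them and are given as a description. The sum runs over both treatments, so an RNA that is high in 1 of them can enter through it. PSMB8-AS1 entered with 31.5 counts in vehicle and 867 in cytokine. Under 150 counts in vehicle were held by 11 RNAs, of which 5 are called higher with cytokine, and under 150 in cytokine by 8, all called lower. For these 5 and 8 the minimum count favoured the direction called, so their calls, p-values and lack of overlap are description only. The 5 include PSMB8-AS1, ST7-AS1, ACVR2B-AS1, SLC12A5-AS1 and CBR3-AS1, and the 8 include CYP2U1-AS1, TMPO-AS1 and SGO1-AS1. Each of the 133 was set beside its sense gene, the protein-coding gene named before the dash. All 133 sense genes had a row and lay on the same chromosome and the opposite strand.

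The libraries came from the line EndoC-BH5, derived from human pancreatic beta cells and labelled wild type. Of the 6 libraries, 3 were from cells given vehicle and 3 from cells given the cytokines IFN-gamma and IL-1beta, a pair widely used to mimic islet inflammation. Neither the doses nor the hours of exposure are stated in the labels. The labels number the libraries but do not say that they came from separate cultures, so p-values measure only the spread between these 6 libraries. In bulk RNA, fewer cells of a type and less RNA per cell cannot be told apart.

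An antisense RNA is transcribed from the strand opposite to another gene, often starting near that gene's own promoter or running through part of its body. Many such RNAs are spliced and kept in the nucleus, where they are made at low levels and are degraded by the nuclear exosome and its adaptor complexes. Some have been tied to the expression of the neighbouring gene through the act of transcription, through chromatin or through pairing of the transcripts, and others act elsewhere or have no known role.

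The promoter sequences printed here belong to the RNAs at both ends of the response: the 3 that rose most, and the one that fell most together with its sense gene. Each window runs from 250 bases before to 50 bases after the start, 5′ to 3′ on the strand of the RNA, from RefSeq on GRCh38.p14. In the PSMB8-AS1 window (chr6:32843836-32844135, plus strand) capitals mark matches to 2 motifs of interferon signalling. One is GAAANNGAA, from the core of the interferon-stimulated response element. The other is TTCNNNGAA, the interferon-gamma-activated site.
PSMB8-AS1: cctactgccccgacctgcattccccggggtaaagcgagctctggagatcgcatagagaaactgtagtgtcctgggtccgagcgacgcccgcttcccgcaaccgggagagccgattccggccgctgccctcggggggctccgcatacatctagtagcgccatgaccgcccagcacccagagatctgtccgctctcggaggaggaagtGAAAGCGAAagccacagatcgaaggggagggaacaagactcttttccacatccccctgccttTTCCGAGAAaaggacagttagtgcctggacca
ST7-AS1: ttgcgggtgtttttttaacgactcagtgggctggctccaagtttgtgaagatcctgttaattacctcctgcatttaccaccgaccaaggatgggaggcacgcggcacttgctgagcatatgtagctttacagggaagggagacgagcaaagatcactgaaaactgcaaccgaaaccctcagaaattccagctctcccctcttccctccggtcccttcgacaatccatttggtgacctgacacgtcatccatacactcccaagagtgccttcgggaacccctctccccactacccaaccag
ACVR2B-AS1: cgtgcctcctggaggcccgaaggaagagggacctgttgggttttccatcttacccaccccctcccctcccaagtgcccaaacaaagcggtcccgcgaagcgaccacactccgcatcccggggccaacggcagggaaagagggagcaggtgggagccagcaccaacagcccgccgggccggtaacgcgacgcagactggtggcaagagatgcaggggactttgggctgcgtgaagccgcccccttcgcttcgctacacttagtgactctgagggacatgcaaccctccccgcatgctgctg
The ST7-AS1 window is chr7:116954285-116954584 and the ACVR2B-AS1 window is chr3:38454771-38455070, both on the minus strand. Neither held either motif. In the next pair, capitals mark the 194 bases that the windows of SSTR5-AS1 (chr16:1078682-1078981, minus strand) and of SSTR5 (chr16:1078576-1078875, plus strand) have in common, read on opposite strands.
SSTR5-AS1: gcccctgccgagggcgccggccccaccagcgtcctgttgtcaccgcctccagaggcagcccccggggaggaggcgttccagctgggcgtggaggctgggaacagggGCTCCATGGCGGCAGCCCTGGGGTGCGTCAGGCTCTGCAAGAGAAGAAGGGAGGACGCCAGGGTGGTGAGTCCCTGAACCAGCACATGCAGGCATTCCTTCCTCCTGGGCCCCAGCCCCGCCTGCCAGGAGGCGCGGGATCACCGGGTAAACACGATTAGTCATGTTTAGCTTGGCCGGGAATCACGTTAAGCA
SSTR5: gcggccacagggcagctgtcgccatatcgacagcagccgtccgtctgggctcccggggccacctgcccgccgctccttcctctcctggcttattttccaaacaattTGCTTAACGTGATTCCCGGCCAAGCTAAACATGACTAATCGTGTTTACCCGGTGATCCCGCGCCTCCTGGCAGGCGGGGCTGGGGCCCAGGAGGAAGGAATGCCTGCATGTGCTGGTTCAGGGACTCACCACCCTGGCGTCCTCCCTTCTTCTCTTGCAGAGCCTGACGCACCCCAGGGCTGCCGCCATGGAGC

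In PSMB8-AS1 the first base of GAAAGCGAA lay 44 bases before the start and that of TTCCGAGAA 18 bases after it. Of the 133 antisense RNAs, 106 matched a promoter by symbol. Both strands were searched. GAAANNGAA occurred in 5 of these 106 windows (4.72%), beside 8.11% of all 35116 promoter windows of the same length. Of the 5, PSMB8-AS1 rose, PSMA3-AS1 and RBM26-AS1 fell, and ZNF529-AS1 and ZBED3-AS1 did not pass the test described next. TTCNNNGAA occurred in 6 of the 106 (5.66%), beside 7.66% of all windows. Of these 6, PSMB8-AS1 rose, ENTPD1-AS1, TTC28-AS1 and PTPRG-AS1 fell, and AGAP2-AS1 and ZNF793-AS1 did not pass. GGANTTTCC, from the kappaB site bound by NF-kappaB, occurred in 2 of the 106 (1.89%), those of ZNF667-AS1 and TMEM9B-AS1, beside 1.64% of all windows. Both were called lower, but the call on ZNF667-AS1 was lost in 5 of the 6 fits that left out 1 library, and that on TMEM9B-AS1 in 3 of them and with the replicate block. Calls lost with DESeq2 were those of ZNF667-AS1, TMEM9B-AS1, PSMA3-AS1, RBM26-AS1, ENTPD1-AS1 and PTPRG-AS1. PSMB8-AS1 held both interferon motifs. The windows were GC-rich, with a median of 64.7% against 65.0% for 112 sense genes and 58.7% for all windows. A match is a description of the letters and not a binding site.

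With cytokine, 16 of the 133 antisense RNAs rose and 56 fell, and 61 did not pass the test (edgeR quasi-likelihood test, Benjamini-Hochberg adjusted p below 0.05 over 17863 genes). Of all tested genes, 28.3% rose and 28.8% fell (57.1% in all, and 63.2% among those with 300 or more counts), so the 12.0% of antisense RNAs that rose lay below that background and the 42.1% that fell lay above it. The median log2 change of the 133 was -0.18, beside -0.018 over all tested genes. Most changes were small: 46 of the 72 that passed were under 1.5-fold, 3 rose by 2-fold or more, and 7 fell by 2-fold or more.

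The shares of all genes also differed with level. Among the 6903 tested genes with 300 to 2500 counts, 21.9% rose and 34.5% fell, with a median of -0.076. The 124 antisense RNAs in that range of counts rose in 12.1% and fell in 41.1% of cases, with a median of -0.18. The levels of the cytokine libraries lay wholly above those of the vehicle libraries in 17 antisense RNAs and wholly below in 57, where 30.3% and 30.7% of all tested genes did so. With no factor for composition, a scaling that moved the median of all genes by -0.20 on the log2 scale, 11 antisense RNAs rose and 83 fell, against 16.7% and 49.2% of all genes. With DESeq2 13 antisense RNAs rose and 33 fell (9.77% and 24.8%), against 21.4% and 16.8% of the 20049 genes it gave an adjusted p.

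**Figure D1:**
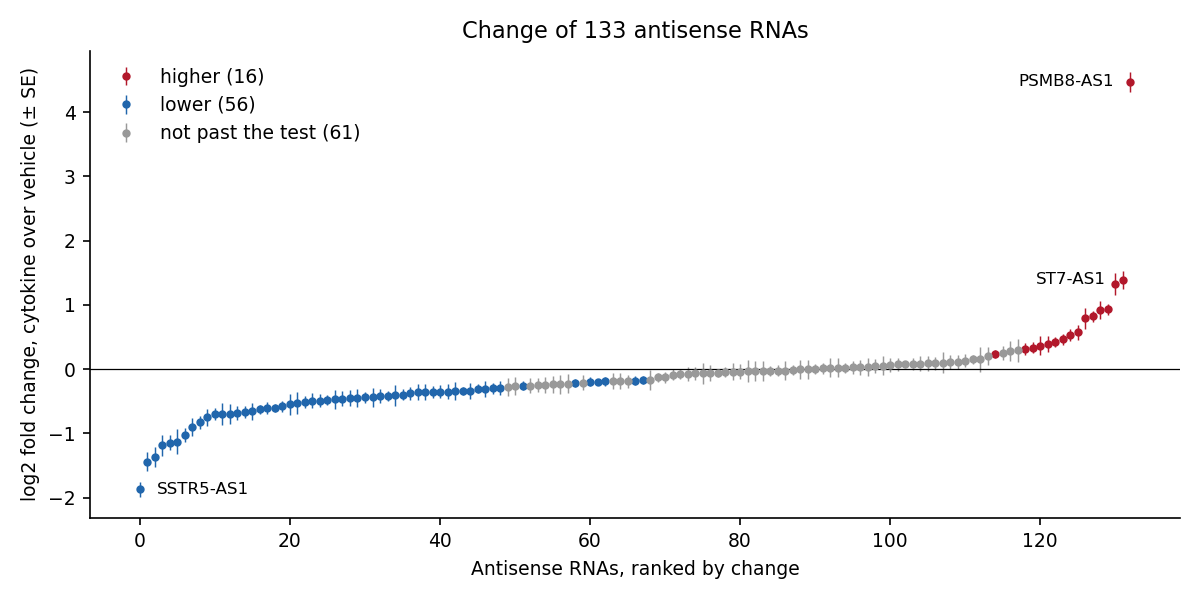
Log2 fold change (y axis, cytokine over vehicle, ± SE) of 133 antisense RNAs ranked from the largest fall to the largest rise (x axis). Red points (16) rose, blue points (56) fell and grey points (61) did not pass the edgeR test. PSMB8-AS1 stands alone at 4.47, and the next, ST7-AS1, is at 1.39.

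**Figure D2:**
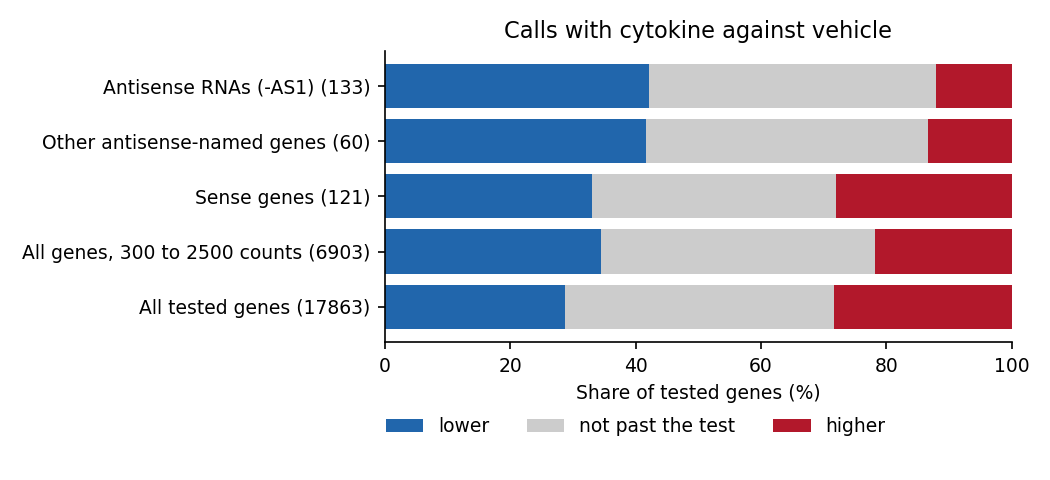
Share of tested genes (x axis, %) that fell (blue), rose (red) or did not pass the test (grey) in 5 sets, with the number tested in brackets. The antisense RNAs fell in 42.1% and rose in 12.0%, beside 28.8% and 28.3% of all tested genes. The set labelled other antisense-named genes holds 60 genes, 50 of them divergent transcripts.

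PSMB8-AS1 showed the largest rise. It starts inside the antigen-presentation cluster of the major histocompatibility complex (GENCODE 29 on GRCh38, chr6:32844086-32846495, plus strand), with a start 39 bp from a start of PSMB8, which encodes an inducible catalytic subunit of the immunoproteasome. Its level was 0.635, 1.01 and 0.994 CPM (the count relative to the composition-scaled library total) in vehicle replicates 1, 2 and 3, and 20.2, 20.2 and 22.2 CPM in cytokine replicates 1, 2 and 3. Every cytokine library was far above every vehicle library. The log2 fold change was 4.47 (SE 0.154, adjusted p = 5.3e-20), or 22.1-fold, on raw counts of 3.5, 11 and 17 in vehicle and 303, 257 and 307 in cytokine.

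PSMB8 itself rose from 6.51 ± 0.419 to 255 ± 15.1 CPM (SD, n = 3 each), a log2 fold change of 5.32. The log2 ratio of PSMB8-AS1 counts to PSMB8 counts was -2.89 ± 0.507 in vehicle and -3.61 ± 0.00743 in cytokine (SD, n = 3). The groups did not overlap with the 0.5 added to each count, but that separation is not secure. Vehicle replicate 1 was at -3.48 on 3.5 counts of PSMB8-AS1, near the -3.6 of cytokine replicate 2. A two-sided exact permutation test gave p = 0.1, the smallest that 3 libraries against 3 allow, so no ratio given here can pass 0.05. Of the 1951 exonic bases of PSMB8-AS1, 618 (31.7%) also lie in exons of PSMB8 on the other strand, and 174 lie in exons of PSMB9 on the same strand. PSMB9, another immunoproteasome subunit, rose from 0.395 ± 0.0719 to 243 ± 15.1 CPM. TAP1, the peptide transporter whose exons also overlap on the other strand, rose from 6.76 ± 0.084 to 2040 ± 48.5 CPM (SD, n = 3). How many reads of these neighbours are counted in PSMB8-AS1 was not tested.

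ST7-AS1 was next by size (chr7:116952446-116954334, minus strand). It had 3.18, 3.21 and 3.63 CPM in vehicle and 9.18, 9.51 and 8.11 CPM in cytokine. All 3 cytokine libraries were above all 3 vehicle libraries, with a log2 fold change of 1.39 (SE 0.138, adjusted p = 1.3e-09). Its sense gene ST7, whose closest start is 57 bp away, was at 15.5 ± 1.95 CPM in vehicle and 15.7 ± 1.1 CPM in cytokine (SD, n = 3) and did not pass the test (adjusted p = 0.979, edgeR). The log2 count ratio of antisense to sense went from -2.19 ± 0.108 to -0.81 ± 0.117 (SD, n = 3). Of the 1889 exonic bases of ST7-AS1, 901 also lie in exons of genes on the other strand, and 454 (24.0%) in exons of ST7 itself.

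ACVR2B-AS1 (chr3:38451027-38454820, minus strand) shares no exonic base with another annotated gene. Its sense gene encodes a type II receptor for activin. It had 1.91, 1.93 and 3.04 CPM in vehicle and 6.19, 6.21 and 6.16 CPM in cytokine. The cytokine libraries lay close together and all above the vehicle libraries, with a log2 fold change of 1.32 (SE 0.171, adjusted p = 1.6e-07). ACVR2B went from 23.1 ± 1.15 to 20.2 ± 1.93 CPM (SD, n = 3), a fall of small size whose groups overlapped (log2 -0.21, adjusted p = 0.0244, edgeR). The call on ACVR2B was lost with DESeq2, with no filter on low counts, and without cytokine replicate 1, cytokine replicate 3 or vehicle replicate 3.

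NPSR1-AS1 (chr7:34346512-34871582, minus strand) rose although its sense gene was hardly detected. It had 15.2, 16.3 and 15.6 CPM in vehicle and 31.7, 31.5 and 26.9 CPM in cytokine, without overlap (log2 0.93, SE 0.0818, adjusted p = 1e-10, edgeR). NPSR1, the receptor for neuropeptide S, was at or below 0.159 CPM in every library and was not tested.

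SLC12A5-AS1 starts 15 bp from a start of SLC12A5, a potassium-chloride cotransporter best known in neurons. It had 4.45, 3.95 and 3.57 CPM in vehicle and 7.45, 6.37 and 7.97 CPM in cytokine, without overlap (log2 0.92, SE 0.144, adjusted p = 3.9e-06, edgeR). SLC12A5 was at 29.1 ± 1.07 and 31.2 ± 1.56 CPM (SD, n = 3) and did not pass the test. PSMB8-AS1, ST7-AS1, ACVR2B-AS1 and SLC12A5-AS1 each had under 150 counts in vehicle. Their p-values and lack of overlap are therefore description only.

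ZEB1-AS1 and ZEB1, a zinc finger repressor known from epithelial-mesenchymal transition, rose together. ZEB1-AS1 had 15.6, 15.7 and 14.7 CPM in vehicle and 26.6, 24.8 and 29 CPM in cytokine, without overlap (log2 0.82, SE 0.0815, adjusted p = 1.3e-09, edgeR). ZEB1 rose more, from 12.8 ± 1.38 to 39.6 ± 3.47 CPM (log2 1.66). The log2 count ratio of the pair therefore went from 0.27 ± 0.16 to -0.56 ± 0.232 (SD, n = 3), without overlap.

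The other 10 that rose had log2 changes of 0.23 to 0.79, and 9 of them were under 1.5-fold. The largest of these was CBR3-AS1, named like the next after its values were seen. It had 2.7, 3.49 and 3.98 CPM in vehicle and 5.12, 6.44 and 7.1 CPM in cytokine, while CBR3, a carbonyl reductase, was too low to be tested. C1RL-AS1 rose from 11.7, 12.2 and 13.2 CPM to 18.8, 18.2 and 17.3 CPM. Its sense gene C1RL, related to a complement protease, rose by a like amount (log2 0.53 for the antisense RNA and 0.46 for the sense gene).

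SSTR5-AS1 showed the largest fall. SSTR5 is a somatostatin receptor through which somatostatin restrains hormone secretion from islet cells. SSTR5-AS1 (chr16:1064093-1078731, minus strand) runs away from SSTR5 on the other strand, and their closest starts are 50 bp apart. It had 17.3, 17.8 and 14.8 CPM in vehicle and 4.66, 4.56 and 4.13 CPM in cytokine. Each cytokine library was below each vehicle library, with a log2 fold change of -1.87 (SE 0.116, adjusted p = 5.3e-14). SSTR5 was rarer, at 1.43, 1.38 and 1.35 CPM in vehicle and 0.998, 0.55 and 0.797 CPM in cytokine (log2 -0.78, adjusted p = 0.0289, edgeR). That call on SSTR5 was lost with DESeq2, with no filter on low counts, and in 5 of the 6 fits that left out 1 library, all but the one without cytokine replicate 1. Per kilobase of exon, SSTR5-AS1 stood at 330% of SSTR5 over all 6 libraries. It shares no exonic base with SSTR5, but 879 of its 4022 lie in exons of AC009041.3 on the other strand.

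CYP2U1-AS1 spans CYP2U1, a cytochrome P450 that hydroxylates fatty acids. It had 6.51, 7.62 and 7.78 CPM in vehicle and 2.86, 2.44 and 2.9 CPM in cytokine, without overlap (log2 -1.44, SE 0.149, adjusted p = 2.4e-09, edgeR). CYP2U1 fell less, from 71.6 ± 2.64 to 46.2 ± 0.0252 CPM (SD, n = 3).

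TMPO-AS1 lies beside TMPO, which encodes lamina-associated proteins of the inner nuclear membrane. It had 5.72, 6.43 and 5.79 CPM in vehicle and 2.33, 3.07 and 2.54 CPM in cytokine, without overlap (log2 -1.19, SE 0.16, adjusted p = 3.2e-07, edgeR). TMPO fell from 87.4 ± 2.83 to 68.3 ± 1.96 CPM (log2 -0.36). SGO1-AS1 pairs with SGO1, which protects cohesion at centromeres. It had 6.51, 4.59 and 8.37 CPM in vehicle and 3.06, 3.77 and 2.46 CPM in cytokine, without overlap but with the widest vehicle spread of the large falls described (log2 -1.13, SE 0.195, adjusted p = 2.1e-05, edgeR). SGO1 fell from 8.35 ± 1.25 to 5.64 ± 0.655 CPM (log2 -0.51).

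ITGA9-AS1 fell without a call on ITGA9, an integrin alpha subunit. It had 12.2, 10.5 and 12.9 CPM in vehicle and 5.46, 5.19 and 5.5 CPM in cytokine, without overlap (log2 -1.15, SE 0.117, adjusted p = 2e-09, edgeR). ITGA9 was rare in both groups, at 1.47 ± 0.243 and 1.34 ± 0.298 CPM (SD, n = 3). In the pairs of SSTR5, CYP2U1, TMPO and SGO1 the sense gene was also called lower, each by less on the log2 scale. The choice of these pairs by the size of the antisense fall favours that difference. In the SGO1 pair the log2 count ratios of vehicle and cytokine overlapped. CYP2U1-AS1, TMPO-AS1 and SGO1-AS1 each had under 150 counts in cytokine, so their p-values and lack of overlap are description only.

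**Figure D3:**
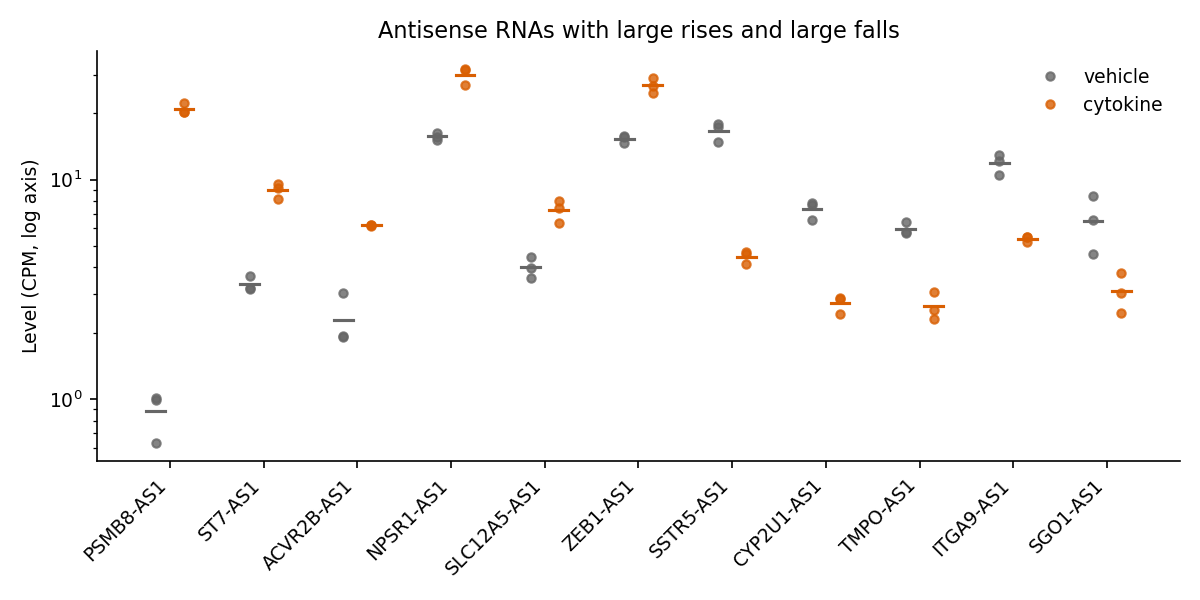
Level of the antisense RNAs that rose most (6, left) and of 5 with large falls (right) (y axis, CPM, log axis). Each point is 1 library, grey for vehicle and orange for cytokine, and bars are means of 3. In none of the 11 do the groups overlap. For PSMB8-AS1, ST7-AS1, ACVR2B-AS1, SLC12A5-AS1, CYP2U1-AS1, TMPO-AS1 and SGO1-AS1 that is description only, since the minimum count favoured it.

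The antisense RNAs with the most counts changed little. FGD5-AS1 held 8.62% of all counts of the 133. It had 172, 181 and 184 CPM in vehicle and 150, 161 and 157 CPM in cytokine, a small fall without overlap (log2 -0.20, SE 0.0449, adjusted p = 0.00032, edgeR). FGD5, an exchange factor for Cdc42 best known in endothelium, was rare and fell from 2.9 ± 0.958 to 0.991 ± 0.114 CPM (log2 -1.45). OIP5-AS1, known in zebrafish and mouse as Cyrano, had 62.7, 68.1 and 75.3 CPM in vehicle and 73.7, 73.6 and 73.1 CPM in cytokine. Its groups overlapped, and it did not pass the test, with a log2 value of 0.072 that was -0.13 when scaled by library size alone. Without vehicle replicate 3, its highest vehicle library, it passed at a log2 value of 0.16 (adjusted p = 0.0395, edgeR). Its sense gene OIP5, a centromere protein of dividing cells, fell from 4.08 ± 1.13 to 2.22 ± 0.271 CPM (log2 -0.99).

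TP73-AS1 had 68.1, 57.4 and 58.7 CPM in vehicle and 46.1, 46.8 and 50.3 CPM in cytokine, without overlap (log2 -0.34, adjusted p = 2.9e-05, edgeR). Its sense gene TP73, of the p53 family, fell from 6.65 ± 0.847 to 4.6 ± 0.597 CPM (log2 -0.53), a call not made by DESeq2. PSMA3-AS1 had 54.1, 49.9 and 57.6 CPM in vehicle and 47.7, 49 and 47.4 CPM in cytokine. Its vehicle libraries were all higher, the lowest of them by little (log2 -0.17, adjusted p = 0.015, edgeR). That call was lost with DESeq2 and without cytokine replicate 1, cytokine replicate 3 or vehicle replicate 3. PSMA3, a core subunit of the 20S proteasome, rose from 36.3 ± 1.87 to 60.8 ± 2.85 CPM (log2 0.76).

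Across the 121 pairs in which the sense gene could be tested, 34 sense genes rose and 40 fell. These are 28.1% and 33.1%, near the 28.3% and 28.8% of all tested genes. Their median log2 change was -0.0059, close to that of all genes. The number of pairs that unlinked calls would give was not computed, so the pair counts are description only. In 27 pairs both genes passed the test in the same direction. Both rose in 4, those of PSMB8, ZEB1, C1RL and FBXL19, and both fell in 23. The call on FBXL19 itself was lost with DESeq2, by library size alone and without vehicle replicate 3. In 15 pairs they passed in opposite directions. The antisense RNA was lower and the sense gene higher in 12 of these, and the reverse held in 3, those of ACVR2B, SCAMP1 and SDCBP2. The antisense RNA alone passed in 20, the sense gene alone in 32 and neither in 27. With DESeq2 there were 13 pairs in the same direction and 4 opposite, and by library size alone 47 and 10. Without cytokine replicate 1, 9 pairs were opposite. Without vehicle replicate 3, 16 pairs had the same direction and 9 were opposite.

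The log2 change of the antisense RNA was below that of its sense gene in 77 pairs and above it in 44, with a median difference in log2 change of -0.12. Over the 121 pairs these changes had a Pearson r of 0.56 and a Spearman rho of 0.22. Without the PSMB8 pair these were 0.19 and 0.20. Pairs are not independent replicates, since they share the same 6 libraries and their scaling factors.

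**Figure D4:**
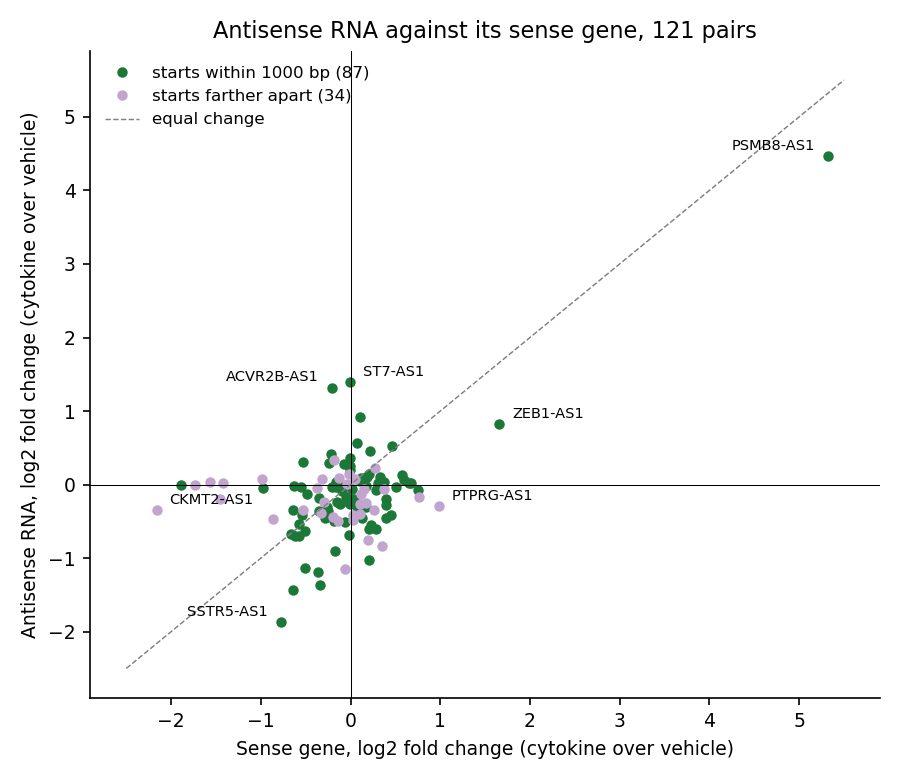
Log2 fold change of each antisense RNA (y axis) against that of its sense gene (x axis), cytokine over vehicle, for 121 pairs. Green points have closest starts within 1000 bp, violet points farther apart, and the dashed line marks equal change. Most pairs lie near the origin and off the line, and PSMB8-AS1 is far from the rest.

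The 4 pairs with the widest opposite changes were those of ACVR2B-AS1, PTPRG-AS1, MCM3AP-AS1 and ZNF337-AS1. MCM3AP-AS1 had 17.6, 14.3 and 14.1 CPM in vehicle and 8.65, 8.17 and 8.26 CPM in cytokine, without overlap (log2 -0.83, SE 0.103, adjusted p = 7.5e-08, edgeR). MCM3AP, a scaffold of nuclear mRNA export, rose from 133 ± 5.74 to 169 ± 4.29 CPM (log2 0.35). The log2 count ratio of the pair fell from -3.12 ± 0.14 to -4.33 ± 0.0218 (SD, n = 3). MCM3AP-AS1 held 7.43% of the counts of MCM3AP and had 1427 of its 7605 exonic bases in exons of that gene.

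PTPRG-AS1 had 11.6, 10.5 and 9.71 CPM in vehicle and 8.12, 8.88 and 8.47 CPM in cytokine (log2 -0.29, adjusted p = 0.0247, edgeR). Every vehicle library was higher, but the call was lost with DESeq2, with no filter on low counts, and without either of vehicle replicates 1 and 2 or of cytokine replicates 1 and 3. PTPRG, a receptor-type tyrosine phosphatase, rose from 8.27 ± 1.26 to 16.1 ± 1.62 CPM (log2 0.99). ZNF337-AS1 had 8.89, 7.99 and 8.25 CPM in vehicle and 4.73, 5.74 and 4.35 CPM in cytokine, without overlap (log2 -0.75, SE 0.131, adjusted p = 1.5e-05, edgeR). ZNF337 rose by 0.19 on the log2 scale (adjusted p = 0.0298), but was at -0.015 when scaled by library size alone. The ZNF337 call was also lost with DESeq2 and without cytokine replicate 1, cytokine replicate 2 or vehicle replicate 2. Exons of PTPRG hold 1207 of the 4496 exonic bases of PTPRG-AS1, and exons of ZNF337 hold 2823 of the 5308 of ZNF337-AS1.

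Of the 3 pairs with a rising antisense RNA and a falling sense gene, those of SCAMP1 and SDCBP2 were outside the rule for named genes. SCAMP1-AS1 shares no exonic base with another annotated gene and starts 76 bp from a start of SCAMP1, which encodes a carrier protein of secretory membranes. It had 17.6, 15.2 and 17.9 CPM in vehicle and 23.8, 21.5 and 22.8 CPM in cytokine, without overlap (log2 0.42, SE 0.0817, adjusted p = 6.6e-05, edgeR). SCAMP1 had 88.4, 88.5 and 91.4 CPM in vehicle and 76.9, 77.9 and 75.5 CPM in cytokine, also without overlap (log2 -0.22, adjusted p = 0.00023, edgeR). In the SDCBP2 pair the antisense RNA was at 0.31 and the sense gene at -0.53 on the log2 scale, and both calls were lost with DESeq2 and without cytokine replicate 2, and that on SDCBP2-AS1 also by library size alone. The call on SDCBP2 was also lost in 4 of the other 5 fits that left out 1 library.

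Among the 12 pairs with a falling antisense RNA and a rising sense gene was that of ATP6V0E2, a subunit of the proton pump that acidifies secretory granules, chosen after its values were seen. ATP6V0E2-AS1 had 19.2, 18 and 16.2 CPM in vehicle and 12.2, 11.5 and 10.6 CPM in cytokine, without overlap (log2 -0.60, SE 0.093, adjusted p = 2.7e-06, edgeR). ATP6V0E2 had 136, 130 and 136 CPM in vehicle and 158, 164 and 165 CPM in cytokine, without overlap (log2 0.28), a call lost when scaled by library size alone.

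**Figure D5:**
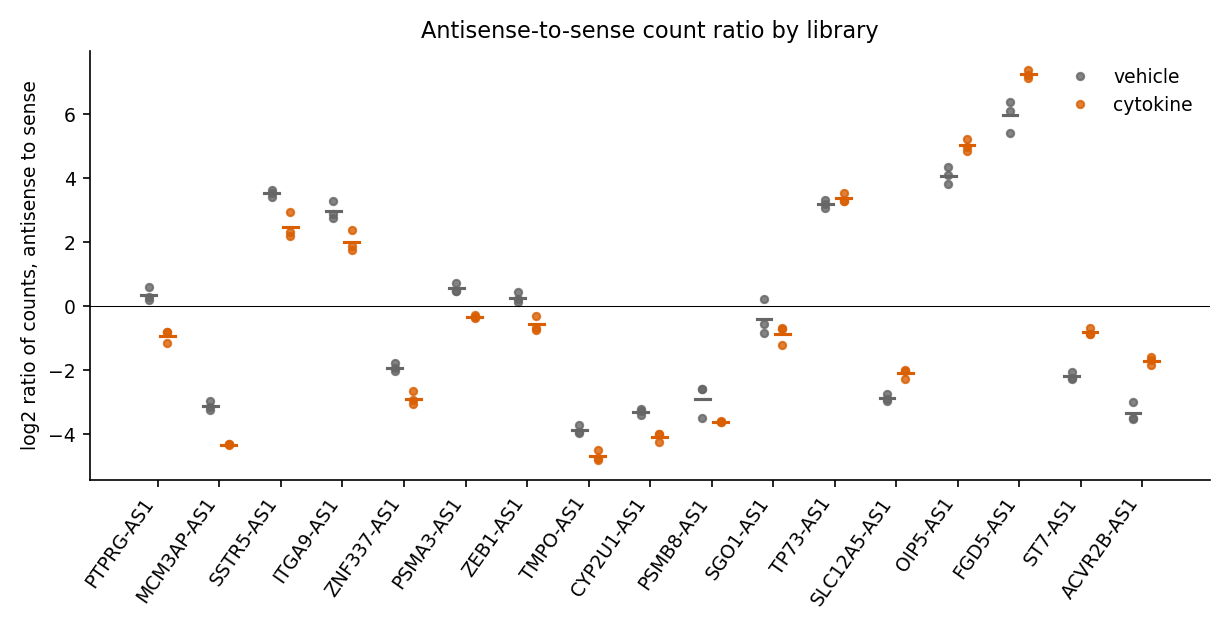
Log2 ratio of antisense counts to sense counts (y axis) in each library for 17 named pairs, ordered by the change with cytokine. Points are libraries, grey for vehicle and orange for cytokine, and bars are means of 3. The ratio fell most in the PTPRG pair and rose most in the ACVR2B pair, and the groups overlap in the SGO1 and TP73 pairs.

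Several pairs sit at genes of beta-cell identity, the cell cycle or energy use, and the ones given here were picked with their values known. PAX6-AS1 fell with PAX6, an islet transcription factor, from 22.5, 24.8 and 22.8 CPM to 17.3, 18.2 and 16.9 CPM (log2 -0.42). PAX6 fell from 483 ± 19.7 to 332 ± 5.87 CPM (log2 -0.54). ENTPD3-AS1 had 5.56, 5.24 and 5.73 CPM in vehicle and 5.06, 6.68 and 4.93 CPM in cytokine, with overlap. Its sense gene ENTPD3, an ectonucleotidase enriched in beta cells, fell from 18.1 ± 1.62 to 5.31 ± 0.826 CPM (log2 -1.73). CDKN2B-AS1, also called ANRIL, had 11.6, 10.3 and 14.6 CPM in vehicle and 12.6, 14.8 and 11.3 CPM in cytokine, with overlap. CDKN2B, an inhibitor of the cell-cycle kinases CDK4 and CDK6 whose gene it spans, fell from 90.1 ± 3.2 to 30.3 ± 0.798 CPM (log2 -1.57). CKMT2-AS1 fell from 10.8, 12.3 and 12.6 CPM to 8.85, 9.98 and 9.85 CPM (log2 -0.35), a call lost with DESeq2 and without vehicle replicate 3. CKMT2, a mitochondrial creatine kinase, fell from 6.09 ± 0.836 to 1.32 ± 0.178 CPM (log2 -2.16).

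RAMP2-AS1, chosen likewise, has a start 1 bp from one of RAMP2, which encodes a partner of the adrenomedullin receptor. It had 11.3, 11.8 and 11.1 CPM in vehicle and 5.79, 5.74 and 5.14 CPM in cytokine, without overlap (log2 -1.03, SE 0.113, adjusted p = 8.3e-09, edgeR). RAMP2 was at 6.93 ± 0.743 and 8.18 ± 0.442 CPM (SD, n = 3) and did not pass. The other 43 that fell and were not selected by size, count or pair had log2 changes of -1.03 to -0.18 with a median of -0.44, RAMP2-AS1, PAX6-AS1 and CKMT2-AS1 included, and 33 of them were under 1.5-fold. The 61 that did not pass had log2 values of -0.28 to 0.29.

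The position of an antisense RNA at its sense gene was read from GENCODE 29. Of the 133, 64 overlapped the 5′ end of the sense gene with their own 5′ end, and of these 11 rose and 23 fell. The 26 that overlapped by their 3′ ends included 16 that fell and 1 that rose, SVIL-AS1. Another 20 spanned the sense gene, of which CBR3-AS1, ALOX12-AS1 and NUTM2A-AS1 rose and 9 fell. Inside the sense gene lay 13, of which CLN8-AS1, LMNTD2-AS1 and FMNL1-AS1 fell and none rose by the edgeR test. The 10 that were divergent without overlap included SCAMP1-AS1, which rose, and OTUD6B-AS1, SSTR5-AS1, TRAM2-AS1, ANKRD34C-AS1 and ZNF528-AS1, which fell. Of those named here, DESeq2 did not make the calls on ALOX12-AS1, LMNTD2-AS1, OTUD6B-AS1, TRAM2-AS1 and ANKRD34C-AS1, and scaling by library size alone did not make those on SVIL-AS1, NUTM2A-AS1 and ALOX12-AS1. The differences between these positions were not tested.

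Pairs were also divided by the distance between their closest annotated starts. In the 89 pairs with closest starts within 1000 bp, 21 changed in the same direction and 10 in opposite directions, with a Spearman rho of 0.36 over 87 pairs, or 0.34 without the PSMB8 pair. In the 44 pairs with starts farther apart, 6 changed in the same direction and 5 in opposite directions, with a rho of -0.14 over 34 pairs. These are descriptions over pairs that share libraries, and the difference between them was not tested.

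Sense and antisense exons share genome bases in 105 of the 133 pairs, with a median of 208 bp over all 133. The library kit retains strand, but the strand setting of the counting is not stated in the sources used here, so reads of overlapping parts cannot be assigned with certainty. The deposited counts were partly fractional, for a reason the sources do not state. Fractions made up 27.8% of values in the 99 antisense RNAs whose exons overlap another gene on the opposite strand only. They made up 23.1% in the 18 without any overlap and 68.8% in the 16 with overlap on the same strand (values over 0.005 from a whole number). Of the 18 without overlap, 3 rose and 6 fell (16.7% and 33.3%, beside 28.3% and 28.8% of all tested genes). The other 9 did not pass, and the median log2 change of the 18 was 0.0091. The 3 that rose were ACVR2B-AS1, NPSR1-AS1 and SCAMP1-AS1.

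The minimum count was set on the antisense RNAs and not on their sense genes, so a comparison of their levels describes the chosen set only. Per kilobase of exon, 64 of the 133 stood above their sense gene and 69 below it, with a median of 77.2% of the sense level over the 6 libraries. In raw counts, 11 held under 5% of the counts of their sense gene, so a small share of the reads of the sense gene would be large beside them. AP1G2-AS1, chosen for its overlap, held 3.92% of the counts of AP1G2 and had 2700 of its 3243 exonic bases in exons of that gene. It rose from 7.46, 6.34 and 6.55 CPM to 9.98, 8.49 and 11.2 CPM (log2 0.57), while AP1G2, a clathrin adaptor subunit, did not pass the test.

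Zinc finger genes by name (ZNF, ZSCAN, ZBED, ZBTB and MZF) were the sense genes of 14 pairs. Of their antisense RNAs ZNF566-AS1 was called higher, 3 lower (ZNF337-AS1, ZNF528-AS1 and ZNF667-AS1) and 10 did not pass, with a median log2 value of -0.013. The call on ZNF566-AS1 was lost with DESeq2, by library size alone and in 4 of the 6 fits that left out 1 library, and that on ZNF667-AS1 with DESeq2 and in 5 of those fits. Their sense genes were 4 higher, 3 lower and 7 not past the test. The shares higher and lower were 7.14% and 21.4% of these antisense RNAs and 28.6% and 21.4% of their sense genes. Of all tested genes they were 28.3% and 28.8%.

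A comparison set of 60 other antisense-named genes with the same minimum count, 50 of them divergent transcripts (suffix -DT), was read beside the 133. Of the 60, 8 rose (13.3%) and 25 fell (41.7%), beside 28.3% and 28.8% of all tested genes, with a median of -0.18. With DESeq2 5 rose and 13 fell (8.33% and 21.7%, beside 21.4% and 16.8% of all genes). By library size alone 3 rose and 39 fell (5.0% and 65.0%, beside 16.7% and 49.2% of all genes). The largest change was that of RIPK2-DT, divergent from the gene of a kinase of innate immune signalling, which rose from 3.49, 2.94 and 4.09 CPM to 41.5, 41.3 and 38.3 CPM (log2 3.48, adjusted p = 1.5e-21, edgeR). B3GAT1-DT fell from 41.9 ± 2.24 to 13.2 ± 1.68 CPM (log2 -1.66). ISL1-DT, divergent from an islet transcription factor gene, fell from 56.3 ± 5.72 to 31.9 ± 1.78 CPM (log2 -0.81, SD, n = 3).

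Among 43 genes of RNA turnover, termination and elongation, most of them nuclear, 14 rose and 9 fell (32.6% and 20.9%, beside 28.3% and 28.8% of all tested genes), with a median of 0.0017. With library size as the one scaling factor 6 rose and 24 fell (14.0% and 55.8%, beside 16.7% and 49.2% of all genes). With DESeq2 14 rose and 3 fell (32.6% and 6.98%, beside 21.4% and 16.8% of all genes). The largest rises were those of XRN1, the cytoplasmic 5′ to 3′ exonuclease, from 75.9 ± 0.672 to 367 ± 29 CPM (log2 2.28), and ZC3H3, from 25.2 ± 0.211 to 56.7 ± 3.27 CPM (log2 1.17). The exosome subunit EXOSC5 fell from 5.26 ± 0.864 to 2.55 ± 0.317 CPM (log2 -1.03), and CPSF4, a subunit of the cleavage and polyadenylation factor, fell by 0.28 on the log2 scale. Whether these moved the antisense RNAs was not tested.

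At the lower edge of the set, MZF1-AS1 and ZNF793-AS1 entered with 302.5 and 303 counts and did not pass the test. Just outside lay ZNF790-AS1 with 299 counts (log2 -0.42) and SLC25A5-AS1 with 296 counts (log2 -0.45). GNAS-AS1 had 115.5 counts and stayed out.

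Total counts per library ran from 5871481 to 16175364, lowest in vehicle replicate 1. All 7 beta-cell markers looked for were present. Mean levels in vehicle and cytokine were 4010 and 3640 CPM for INS, 4000 and 8240 for IAPP, 222 and 153 for PDX1, and 161 and 174 for NKX6-1. SLC30A8 was at 518 and 241 CPM, G6PC2 at 42 and 6.63 CPM and MAFA at 5.16 and 1.46 CPM. Of the markers of other cell types, the acinar PRSS1 was at 0 counts, and the leukocyte marker PTPRC and the endothelial marker PECAM1 had 10 and 18 counts in all. SST of delta cells and KRT19 of duct cells were present at 555 and 161 CPM in vehicle. Among leukocyte markers CD68 was at 5.19 and 21.4 CPM in vehicle and cytokine, CD14 at 2.63 and 2.06 CPM and CD3E at 0.164 and 0.0222 CPM. Among fibroblast markers PDGFRB was at 2.93 and 12.1 CPM, COL1A1 at 0.189 and 0.615 CPM and COL1A2 at 0.373 CPM in both. Their part in the results was not tested.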

How the data were processed

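The authors deposited an estimated count per gene and library, unnormalised and partly fractional, per the file headers and values. They also deposited a log2 fold change and an FDR (an adjusted p-value) per gene, with a mean log2 CPM and an F score that were not used. The submitters' processing notes name cutadapt 2.10, STAR 2.7.5a and HTSeq 0.12.4 and the build GRCh38. The sources used here state neither the annotation release nor the strand setting. Columns named NT were taken as vehicle.

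Estimated counts were rounded to whole numbers, a step the planned test had not foreseen. filterByExpr left 17863 genes, which were scaled with TMM (factors of 1.06 to 1.08 in vehicle and 0.931 to 0.934 in cytokine libraries). The test was edgeR 4.0.16 (R 4.3.3), a robust quasi-likelihood fit on group with Benjamini-Hochberg adjustment at 0.05 over all tested genes, tested on simulated data. The SE is the log2 change divided by the square root of F. All 133 antisense RNAs passed the filter, and 12 sense genes did not. Pair ratios used a pseudocount of 0.5 and a two-sided exact permutation test (SciPy 1.17.1). Positions came from GENCODE 29. Promoter windows came from RefSeq, and the ISRE and kappaB letters searched are shortened forms, chosen after longer ones had been searched.

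The members and lists were chosen with earlier results of these data known. Named were preset antisense RNAs, the 6 largest rises and falls, the 4 with most counts, the 4 widest opposite pairs and those nearest 300 counts, of which a few are not reported here. By the authors' deposited table, 16 of the 133 rose and 49 fell. Of the calls, 65 were shared with the refit, with the same sign.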

Additional observations from a re-analysis of the deposited data

How the results depend on the processing

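Of the 16 rises, 13 kept their call in every fit that left out 1 library and 13 with DESeq2, and of the 56 falls 35 and 33 did. Leaving out 1 library gave 15 to 17 rises and 40 to 52 falls, 5 to 8 falling turnover genes, 16 to 25 pairs with the same direction and 9 to 13 opposite ones. DESeq2 gave 33 falls, 25 falling sense genes, 5 rises and 13 falls with 42 not past among other antisense-named genes, 3 falling turnover genes, and 13 same and 4 opposite pairs. Against a 1.5-fold change (glmTreat), 6 antisense RNAs rose, 9 fell and 118 did not pass. The counts were 5, 8 and 108 for sense genes, 1, 2 and 57 for other antisense-named genes, and 2, 1 and 40 for turnover genes, with 2 same and 0 opposite pairs. Scaled by library size alone, 39 antisense RNAs did not pass, sense genes were 16 higher and 66 lower, other antisense-named genes 3 and 39, turnover genes 6 and 24 with 13 not past, and 47 pairs had the same direction. An adjusted p of 0.01 gave 5 rising other antisense-named genes, 5 falling turnover genes and 6 opposite pairs. A minimum of 100 counts gave 25 rises, 91 falls and 117 not past, with 48 same and 25 opposite pairs. A minimum of 1000 gave 8, 21 and 18, with 12 and 6. Without exon overlap there were 3, 6 and 9, and 6 same and 4 opposite pairs. No share of all genes is given for the fits without 1 library, the 1.5-fold test or the adjusted p of 0.01. None is given for the minima of 100 and 1000 counts either, so the counts in those settings cannot be set against a background.

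The sign of values that did not pass, or of small sense changes, turned in some settings. By library size alone OIP5-AS1 was at -0.13, SLC12A5 at -0.088, ZNF337 at -0.015, MZF1 at -0.056, CDKN2B-AS1 at -0.17 and AP1G2 at -0.13. ST7 was at 0.0075 with DESeq2 size factors in edgeR, 0.03 with DESeq2, 0.0068 with no filter, and -0.087 to 0.14 over the fits without 1 library. ENTPD3-AS1 was at 0.0049, 0.024 and 0.0031 in the first 3 of these settings. Over the fits without 1 library ENTPD3-AS1 ran from -0.14 to 0.08, ITGA9 from -0.2 to 0.12, MZF1-AS1 from -0.17 to 0.062 and CDKN2B-AS1 from -0.081 to 0.25. The cause was not tested.

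Same-numbered libraries did not deviate together (r of 0.0115, -0.0471 and -0.0499 for numbers 1, 2 and 3). That gave no sign of pairing by number, but it cannot exclude pairing, since counting noise could hide a weak shared deviation. The labels do not settle it. With the replicate block 16 antisense RNAs rose and 58 fell, and ENTPD3-AS1 was at 0.0017.

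Vehicle replicate 1 was the shallowest library, and the 9 antisense RNAs with the lowest totals had 18.58 to 40 counts in it.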

Other observations

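Long non-coding RNAs whose names carry no antisense suffix, some of them antisense or imprinted, were read beside the -AS1 set. MEG3, an imprinted RNA abundant in beta cells, rose from 1050 ± 86.2 to 1750 ± 7.15 CPM (SD, n = 3 each), a log2 fold change of 0.75 (edgeR adjusted p = 3.1e-14). GAS5, which hosts small nucleolar RNAs, fell from 65.3 ± 3.09 to 44 ± 2.89 CPM (log2 -0.57, edgeR adjusted p = 2.7e-09). DLEU1 fell from 9.91 ± 0.597 to 5.57 ± 0.279 CPM (log2 -0.85, edgeR adjusted p = 4.4e-07). ZFAS1, another host of small nucleolar RNAs, was at 16.2 ± 1.12 and 15.6 ± 1.01 CPM and did not pass the test. KCNQ1OT1, the imprinted antisense RNA of a potassium channel gene, was at 21.8 ± 2.6 and 19.1 ± 7.11 CPM, with a spread in cytokine wider than the difference. TSIX was at 1.64 ± 0.36 and 1.7 ± 0.422 CPM and did not pass the test. NKILA and HOTAIRM1 were not tested.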
